A study of Mus musculus with 18 samples.

Results

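The comparison set 6 female Swiss Webster livers against 6 female C57BL/6J livers, 12 of the 18 libraries of the series, chosen by the strain and sex in the sample labels and by no measured value. The series measured liver RNA of penicillin-treated mice, of untreated mice and of germ-free mice given the microbes of either. All 12 mice were 8 weeks old at collection and had eaten the purified diet D12451, with 45% of its energy as fat. The C57BL/6J females (B6) were 3 controls without antibiotic (mice 29, 30 and 32) and 3 given low-dose penicillin (LDP) from birth (mice 39, 52 and 54). They were weaned at week 4 onto normal chow and moved to the high-fat diet at week 6. The Swiss Webster females (SW) were germ-free until week 3, when 3 were conventionalized with microbes of control mice (mice 1, 3 and 7) and 3 with microbes of LDP mice (mice 2, 5 and 8). SW mice got no antibiotic after the transfer, and the week at which their high-fat diet began is not stated. Control and LDP mice with control and LDP recipients are called the control arm and the penicillin arm. Strain, colonisation history, experiment and perhaps the time on the high-fat diet changed together, so their parts in any difference cannot be told apart. Cage, litter and donor are not given either, so the p-values measure the spread between these mice.

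C57BL/6J is an inbred strain, while Swiss Webster is an outbred stock whose animals differ from each other in sequence. Germ-free mice are reared without microbes, and the livers of mice that acquire microbes receive bacterial products through the portal vein, which resident macrophages sense and which keep a low level of interferon-stimulated genes on. Mouse stocks also carry different copies of tandem gene families, such as serpins, sulfotransferases, cytochromes P450 and the major histocompatibility complex (MHC), many of which are made by hepatocytes.

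Libraries held 17937005 to 28646168 counts. Values are given as CPM, counts scaled to a common library total, with totals adjusted by edgeR's TMM factors, and changes as log2 of SW over B6 from edgeR's quasi-likelihood fit with the arm as a covariate. Adjusted p-values are from that test with the Benjamini-Hochberg adjustment over all 13295 genes tested, and a gene passed at an adjusted p under 0.05. Albumin took 9.87% to 14.4% of each library, and Xist, made by the inactive X chromosome of females, had 8045 to 19373 counts in every library. All 14 hepatocyte markers were tested. Their summed level was 180400 to 243800 CPM in SW mice and 201000 to 215300 CPM in B6 mice, and their median log2 change was 0.03, with Serpina1c alone passing. In a plot of the libraries by their leading log2 differences, the first dimension, with 59.9% of the variance, parted the 6 SW mice from the 6 B6 mice, and the second (7.80%) set SW control 7 (-0.90) apart from SW control 1 and 3 (0.79 and 0.78).

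Of 13295 genes, 1670 were higher in SW livers (12.6%) and 1842 were lower (13.9%). At a change of at least 2-fold these were 372 (2.80%) and 566 (4.26%). All 6 SW mice lay above all 6 B6 mice for 843 genes (6.34%) and below them for 882 genes (6.63%). The median absolute log2 change was 0.20. Control and penicillin arms share no library, and each was also fitted alone with 3 against 3 mice. The control arm gave 472 higher genes (3.67%) and 614 lower genes (4.77%), and the penicillin arm 808 (6.22%) and 1132 (8.71%). Of 1049 genes that passed in the control arm and were tested in both, 98.0% had the same direction in the penicillin arm and 65.3% also passed there. For 1879 genes that passed in the penicillin arm, these shares were 95.2% and 36.5% in the control arm. All 12760 genes tested in both had the same direction in 72.0%, and Pearson's r of the changes across genes, which are not independent replicates, was 0.83. A test of the difference between the arms called 0 genes by edgeR, with 790 at an unadjusted p under 0.05, and 12 by DESeq2. Among the 12 was Cyp46a1, a cholesterol hydroxylase, with a log2 change of 0.44 in the control arm and 5.40 in the penicillin arm. Over both arms its adjusted p was 0.0384, and 0.0533 to 0.119 without any 1 of the 3 B6 LDP mice and SW LDP 8.

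**Figure D1:**
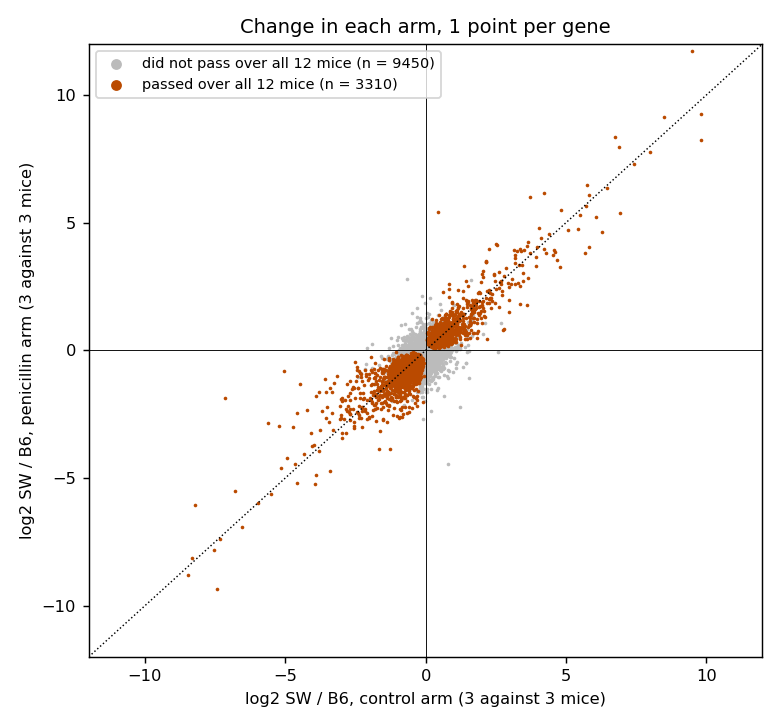
Each point is a gene, with the log2 ratio of SW over B6 livers in the control arm on the x axis and in the penicillin arm on the y axis, each from 3 against 3 mice. Genes that passed over all 12 mice (orange) lie around the dotted line of equal change, and a test over both arms favours such genes. Some lie well off the line, among them Art4 (-0.10 and -2.04) and Cyp46a1, the orange point at 0.44 and 5.40.

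Among the largest log2 changes were genes counted in every mouse of 1 set and hardly or not at all in the other. In each direction the 12 largest were taken among genes with a name and a mean of 1 CPM or more. These had also passed without overlap between the sets, so their separate ranges follow from the choice. Some gene models with changes as large were not named. Sult2a6, a sulfotransferase of the family that conjugates bile acids and steroids (chromosome 7, 14222403 to 14254870, minus strand, GRCm38), stood at 13.98 to 25.3 CPM (median 14.9) in SW mice. In B6 mice it had 1 count in B6 control 29 and 0 in the other 5, so that the 2311 counts of the SW mice were a 2305-fold higher level, with an interval of 413 to 91070 that covers counting error only. Its adjusted p was 2.33e-10 by edgeR's quasi-likelihood test. Serpina3c, a serine protease inhibitor (chromosome 12, 104146382 to 104153870, minus strand), stood at 112 to 240.4 CPM (median 162) against 0.0921 to 0.300 CPM (median 0.214). Its log2 change was 9.52 ± 0.26 (approximate SE), with an adjusted p of 3.79e-11 by edgeR. Ctse, the aspartic protease cathepsin E (chromosome 1, 131638306 to 131675505, plus strand), stood at 48.5 to 106 CPM (median 67.9) against 0.230 to 1.12 CPM (median 0.289). No SW mouse came near the B6 range for any of these 3 genes. For Ctse the log2 change was 7.36 ± 0.31 (SE; adjusted p = 7.07e-09).

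Cyp2c39, a cytochrome P450 that metabolises fatty acids and retinoids, was the most abundant of the 12 higher genes taken by this rule. It took 982 to 1178 CPM (median 1027) in SW livers and 5.83 to 19.2 CPM (median 12.7) in B6 livers, 85.1-fold apart (log2 change 6.41 ± 0.26, adjusted p = 1.60e-09). Corin, the protease that activates natriuretic peptides and is best known from the heart, stood at 27.2 to 52.1 CPM (median 36.4) against 0.370 to 1.33 CPM (median 0.861). Ankrd55, an ankyrin repeat protein, was at 24.5 to 45.8 CPM (median 33.9) against 0.322 to 2.22 CPM (median 0.999). The log2 changes of Corin and Ankrd55 were 5.39 and 5.05. C1rb, a copy of the gene for the complement protease C1r, had a log2 change of 6.12 ± 0.22, from 0.0463 to 0.276 CPM (median 0.162) in B6 to 10.2 to 14.8 CPM (median 11.03) in SW mice. At lower levels, Sult2a4 (log2 change 7.42), Prom2 (5.69), Klhl33 (5.61), Serpina5 (5.32) and Rims4 (5.04) completed the 12. Their highest B6 values were 0.0558, 0.157, 0.139, 0.231 and 0.149 CPM, under their lowest SW values of 4.85, 2.87, 2.25, 2.61 and 1.21 CPM.

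Among the 12 largest falls by the same rule was Trim12a, of the TRIM5-related family of antiviral proteins (chromosome 7, 104299894 to 104315466, minus strand). It stood at 6.42 to 10.9 CPM (median 8.03) in B6 mice. The 6 SW mice held 3 counts of it in all, against 1113 in B6 mice, a ratio of 372 with a counting interval of 127 to 1807. Btnl9, a butyrophilin-like membrane protein (chromosome 11, 49165585 to 49187159, minus strand), had 565 counts in B6 and 2 in SW mice, a ratio of 283 (78.1 to 2345). The olfactory receptor genes Olfr1033 and Olfr1034, which lie next to each other on chromosome 2 (86020633 to 86045171 and 86045861 to 86050742), stood at 7.60 to 17.3 CPM (median 12.1) and 1.52 to 2.96 CPM (median 2.38) in B6 livers. Olfr1033 reached at most 0.0930 CPM in SW mice. Olfr1034 had no count there, so its level in B6 was at least 98.3-fold higher against a floor of 3 counts over the 6 SW mice. That every B6 mouse lay above every SW mouse for these 4 genes was a condition of their choice.

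Ube2u, an E2 ubiquitin-conjugating enzyme, held 268 counts in B6 against 2 in SW mice. Cebpe, a transcription factor of granulocytes, stood at 1.93 to 2.87 CPM (median 2.23) against 0 to 0.110 CPM (median 0.0225). Disp2, of the dispatched family of membrane proteins, was at 4.88 to 8.42 CPM (median 6.61) against 0.0505 to 0.232 CPM (median 0.101). Levels of these 3 genes varied little between B6 mice, unlike the next 2. Chrna4, a neuronal nicotinic receptor subunit, ranged from 0.112 to 4.79 CPM in B6 mice and Cib3, a calcium-binding protein, from 0.279 to 4.20 CPM. SW mice held 1 count of Chrna4 in all and at most 0.0505 CPM of Cib3. Adh6-ps1, an alcohol dehydrogenase pseudogene, was at 7.88 to 16.1 CPM (median 10.6) against 0 to 1.14 CPM (median 0.265). The remaining 2 of the 12, Rps2 and Rps18, encode ribosomal proteins and are described with their family.

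**Figure D2:**
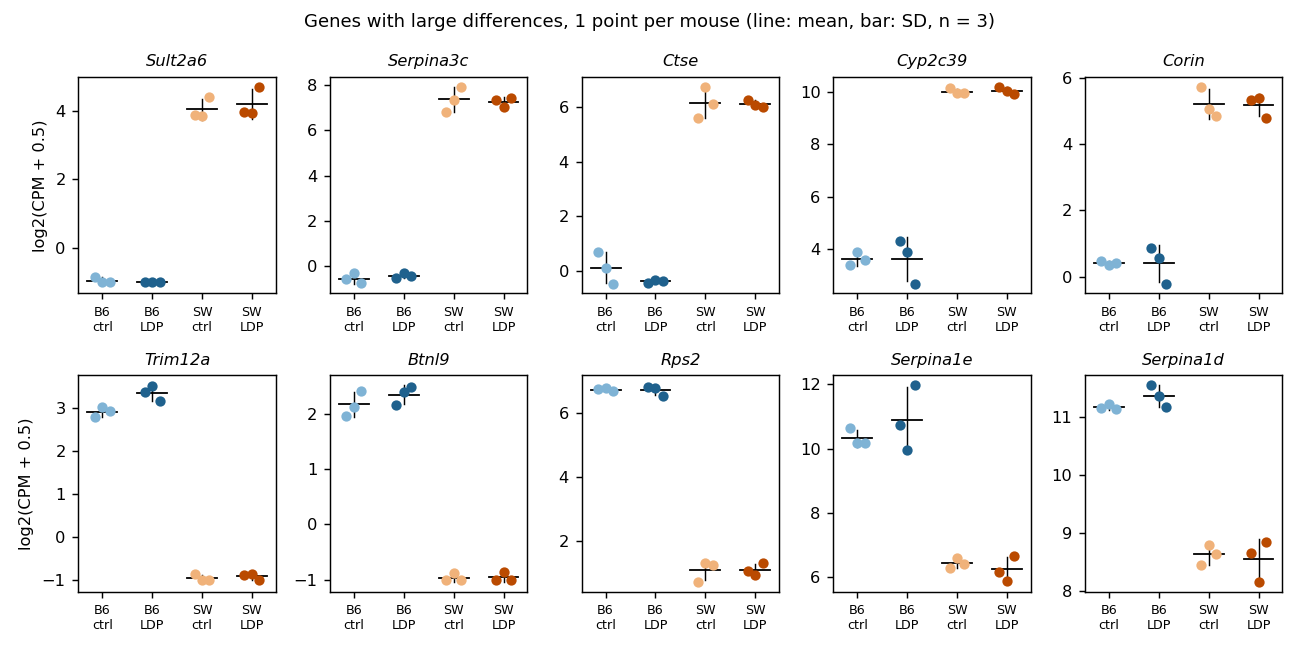
Expression of 10 genes in each mouse as log2(CPM + 0.5), with 3 mice in each of the 4 groups, a line for the mean and a bar for the SD. In each panel the 6 SW mice and the 6 B6 mice form separate ranges, and the arms overlap within a set in most panels.

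Only a few genes were counted in 1 set alone. With at least 10 counts in all 6 mice of a set and none in the other, there were 2 genes in SW and 2 in B6 mice. Frmpd1, a scaffold protein (chromosome 4), had 22 to 51 counts in SW mice, at least 58.8-fold over the floor of 3 counts across the B6 mice. The second SW gene was a gene model in the MHC region of chromosome 17. On the B6 side the 2 were Olfr1034, described above, and Cela2a, a pancreatic elastase. Cela2a had 17 to 27 counts, at least 40.8-fold over the floor across the SW mice. The 6 C57BL/6J males of the series, which do not enter the comparison, had 0 to 3 counts of Frmpd1 and 23 to 40 counts of Cela2a. When up to 3 counts were allowed in the other set, 13 genes were found on the SW side and 9 on the B6 side. Of the 12 of these 13 that could be matched to the table of males, 6 had at most 3 counts in every B6 male. For the B6 side 8 of 9 could be matched, and 7 had at least 10 counts in every B6 male. Genes on the B6 side were chosen for at least 10 counts in every B6 female. How many of all genes reach these counts in the males is not given, so these numbers are a description.

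Positions of the large differences on the chromosomes are given as a description. Of 250 genes that passed with at least 4-fold change and no overlap (120 higher and 130 lower), 245 had a position in GENCODE M21 (GRCm38), and 117 of these lay within 1 Mb of another. The share for as many genes drawn from all tested genes is not given. The count therefore does not show whether large differences lay closer together than other genes. The share of tested genes that passed ran from 15.7% on chromosome X and 20.1% on chromosome 16 to 31.1% on chromosome 13, beside 26.4% over all genes. Trim12a sat on chromosome 7 beside 2 relatives that were higher in SW mice, Trim6 (log2 change 4.09) and Trim34b (4.29), both picked after their values were seen. Reads of near-identical copies can be shared or lost in counting, and how the counting treated reads that match several places is not given in the sources used here, so single members of the families below are uncertain.

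The Serpina cluster on chromosome 12 showed changes in both directions. Mouse Serpina1a to Serpina1e are copies of the gene for alpha-1 antitrypsin, the main inhibitor of neutrophil elastase in plasma. The 250 bases before the start of each hold an identical stretch of 55 bases, shown because the copies that share it had very different levels. It is written 5′ to 3′ on the coding (minus) strand from RefSeq, GRCm38.p6, at chr12:103956960-103957014 for Serpina1e and chr12:103863625-103863679 for Serpina1a, with GTTAAT, the core of the site bound by the hepatocyte factor HNF1, in capitals.
Serpina1a to Serpina1e: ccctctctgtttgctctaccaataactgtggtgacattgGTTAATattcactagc
GTTAAT, searched on both strands, occurs in the 250 bases before the start of 7.49% of 27025 genes with a RefSeq promoter. Serpina1e stood at 58.9 to 100.2 CPM (median 81.4) in SW livers and 985 to 4018 CPM (median 1372) in B6 livers, where B6 LDP 54 was highest (log2 change -4.39 ± 0.36, adjusted p = 5.40e-06). Serpina1d was at 284 to 456 CPM (median 400.0) against 2255 to 2988 CPM (median 2349.9), with a log2 change of -2.67 ± 0.13. Neither gene's ranges overlapped. Serpina1c and Serpina1b were lower by less (-0.57 and -0.34, the latter with an adjusted p of 0.0527 to 0.0600 without any 1 of B6 LDP 39, B6 LDP 52, SW control 1 and SW LDP 2), and Serpina1a had a log2 change of -0.08 and an adjusted p of 0.625, with 1274 to 1942 CPM (median 1633) against 1590.1 to 1912 CPM (median 1690.2). Serpina3g, which inhibits cysteine proteases, was lower as well (4.90 to 6.68 CPM, median 5.71, against 10.97 to 39.3 CPM, median 18.4). Higher in SW were Serpina3h (9.90 to 14.3 CPM, median 11.1, against 0.397 to 1.01 CPM, median 0.717), Serpina11 (log2 change 1.70) and the acute phase gene Serpina3n (0.51), beside Serpina3c and Serpina5. Over the whole list of serine protease inhibitors, 10 of 34 tested were higher and 7 lower, beside 12.6% and 13.9% of all genes, with a median log2 change of 0.15. Members of the cluster other than Serpina3c, Serpina3h, Serpina5, Serpina1d and Serpina1e were picked after their values were seen.

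Of the 7 tested sulfotransferases Sult2a1 to Sult2a7 on chromosome 7, 5 were higher in SW livers. Sult2a2 (log2 change 1.17, adjusted p = 0.0509) and Sult2a7 (-1.67, adjusted p = 0.132) did not pass. Sult2a8, counted under an older symbol, did not pass either, with log2 changes of -0.51 in the control arm and -0.13 in the penicillin arm. Beside Sult2a6 and Sult2a4, Sult2a5 stood at 7.73 to 14.5 CPM (median 8.42) against 0.231 to 2.40 CPM (median 0.829) and Sult2a1, which sulfates bile acids in female mice, at 139.7 to 688 CPM (median 211) against 4.58 to 122 CPM (median 19.5). Neither overlapped, but SW control 7 was far above the others for Sult2a1. Sult2a3 overlapped between the sets, with 0.629 to 23.7 CPM (median 3.42) against 0 to 1.20 CPM (median 0.143), with a log2 change of 4.46 ± 1.07, adjusted p = 0.0112. Of all conjugation enzymes 14 of 43 tested were higher and 5 lower (8 lower without B6 LDP 54), beside 12.6% and 13.9% of all genes, with a median of 0.20. The UDP-glucuronosyltransferase Ugt1a9, which attaches glucuronic acid to drugs and fatty acids, was higher at 201 to 331 CPM (median 238) against 30.9 to 53.7 CPM (median 36.8), with a log2 change of 2.69. Ugt1a5, which shares its last exons with Ugt1a9, was lower at 2.42 to 13.7 CPM (median 5.08) against 17.1 to 119 CPM (median 69.6), with a log2 change of -3.42 ± 0.59. Ugt1a1, the bilirubin-conjugating member, was also lower (-0.73). The models of Ugt1a1, Ugt1a5 and Ugt1a9 overlap and end at the same place (chromosome 1, 88218997), so reads of the shared exons cannot be given to 1 of them. Among glutathione transferases Gstt1 was lower (119.9 to 161 CPM, median 136, against 211 to 379 CPM, median 346) and its neighbour Gstt3 was higher (139 to 225 CPM, median 165, against 41.4 to 132 CPM, median 93.8). Nnmt, which methylates nicotinamide, was lower (-1.74 ± 0.34, adjusted p = 0.00336).

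CAR and PXR are nuclear receptors that switch on detoxifying enzymes when drugs or bile acids bind. Of their 33 tested targets 9 were higher (27.3%) and 5 lower (15.2%) in SW livers, beside 12.6% and 13.9% of all genes. Their median was 0.03. The 5 lower ones were 3 without any 1 of B6 control 30, B6 control 32, B6 LDP 39, SW control 3 and SW LDP 2. Genes of the Cyp3a cluster on chromosome 5, which metabolise drugs and steroids, were among the higher ones. Cyp3a11 stood at 1770.1 to 5517 CPM (median 2797) against 854 to 1669 CPM (median 1113), Cyp3a16 at 319 to 681 CPM (median 389) against 0.601 to 42.7 CPM (median 14.3) and Cyp3a41a at 125 to 314 CPM (median 157) against 3.70 to 54.3 CPM (median 26.9). Ranges of these 3 did not overlap (log2 changes 1.45, 4.48 and 2.81). Cyp3a59 was higher without overlap (1.68). Of 8 tested Cyp3a genes 7 passed, all higher, and Cyp3a13 had a log2 change of -0.07 (adjusted p = 0.785). Gadd45b, a stress and growth gene on the same list, was higher too (1.58 ± 0.26), while Cyp2a4, a steroid hydroxylase, was lower (332 to 432 CPM, median 402, against 661 to 1009 CPM, median 857). Of 25 other tested Cyp2 genes, 3 were higher, among them Cyp2d13 (0.82) and Cyp2f2 (0.57), and 6 were lower, among them Cyp2c68 (140.2 to 223 CPM, median 187, against 335 to 414 CPM, median 383), a neighbour of Cyp2c39. Ces1b, a carboxylesterase that splits esters, was at 591 to 741 CPM (median 663) against 116 to 209 CPM (median 148). Of 13 carboxylesterases 2 were higher (15.4%) and 3 lower (23.1%), beside 12.6% and 13.9% of all genes. The 2 include Ces1b, and the lower ones were 5 without B6 LDP 54. Targets of NRF2, the regulator of antioxidant enzymes, were higher in 7 and lower in 3 of 28, beside 12.6% and 13.9% of all genes. The median of that list was -0.04 and 18 of its 28 members had a change below 0. Higher were Gsta4 (0.91) and Txnrd1 (0.37), the 2 of smallest p. The Cyp3a genes were picked after their values were seen.

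The liver also makes sex-biased proteins under the pulses of growth hormone. The female-biased list had 7 higher (22.6%) and 4 lower (12.9%) members of 31 (2 lower without B6 LDP 52), with a median of 0.21. The male-biased list had 3 higher (11.5%) and 9 lower (34.6%) members of 26, with a median of -0.15. Beside these, 12.6% of all genes were higher and 13.9% lower. Hao2, a peroxisomal hydroxyacid oxidase on the female-biased list, stood at 105 to 195 CPM (median 158) against 5.36 to 27.8 CPM (median 17.3), with a log2 change of 3.25 ± 0.31. A1bg, a plasma protein made mainly by female livers, ranged from 41.1 to 1027 CPM in SW mice and overlapped the B6 mice (33.8 to 117 CPM, adjusted p = 0.0197, and 0.0502 without SW control 1). Fmo2 was lower (-0.69). Major urinary proteins (Mup), the pheromone carriers that male livers make in bulk, were lower in 8 of 15 and higher in 1, beside 13.9% and 12.6% of all genes, with a median of -0.84. Mup20, which marks male scent, stood at 2.43 to 9.23 CPM (median 4.48) against 22.2 to 90.4 CPM (median 36.6), while Mup9 alone was higher, with overlap (1.91 ± 0.46). Of male-biased genes, C4a, a complement C4 copy in the MHC region, was higher in SW livers (13.5 to 42.4 CPM, median 27.4, against 1.90 to 5.02 CPM, median 3.96), as was the steroid dehydrogenase Hsd3b2 (1.19).

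The MHC on chromosome 17 holds genes that present peptides to T cells, and its haplotype is a known difference between mouse strains. In the class I list 5 of 29 were higher and 10 lower, beside 12.6% and 13.9% of all genes. H2-K1, a classical class I heavy chain of nearly every cell, stood at 135 to 492 CPM (median 275) in SW and 1019 to 1387 CPM (median 1236) in B6 livers (log2 change -2.10 ± 0.32, adjusted p = 5.81e-04). H2-Q10, the secreted class I protein of hepatocytes, was lower (-0.81), as were the nonclassical H2-T22 (-1.36) and H2-T23 (-1.25) and the peptide transporter subunit Tap1 (14.2 to 18.7 CPM, median 15.6, against 27.2 to 38.4 CPM, median 31.3). The class I genes H2-Bl (3.59 to 6.19 CPM, median 4.28, against 0.0558 to 0.461 CPM, median 0.379) and H2-T10 (14.4 to 34.8 CPM, median 17.8, against 2.51 to 3.47 CPM, median 3.35) were higher with no overlap. In the class II list 5 of 11 were lower and 1 higher, with H2-Eb1 at 6.24 to 16.4 CPM (median 10.7) against 19.2 to 43.5 CPM (median 28.5) and the peptide loading subunit H2-DMb1 at a log2 change of -1.22. H2-Ea-ps, the E alpha gene that is disrupted in C57BL/6 mice, was uneven among SW mice, with 0 in SW control 1 and 3, 0.438 CPM in SW LDP 5, 0.955 in SW LDP 2, 8.59 in SW LDP 8 and 12.3 in SW control 7. B6 mice held 1 count of it in all, and the adjusted p was 0.0199, or 0.137 without the B6 mouse that held it, B6 control 29.

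Of 18 tested genes with alleles known to differ between C57BL/6 mice and other strains, 4 were higher (22.2%) and 5 lower (27.8%). Over all genes 12.6% were higher and 13.9% lower. Nnt, the mitochondrial transhydrogenase in which C57BL/6J lacks several exons, stood at 212 to 250.4 CPM (median 228) in SW and 64.9 to 78.6 CPM (median 71.6) in B6 mice (log2 change 1.67 ± 0.08, adjusted p = 2.46e-09). Alad, of heme synthesis, known to vary in copy number between strains, stood at 139 to 299 CPM (median 226) against 70.9 to 138 CPM (median 108), and the endosomal protein gene Wdfy1 at 22.6 to 29.3 CPM (median 25.2) against 10.5 to 13.4 CPM (median 11.1). No SW mouse fell into the B6 range of these 3 genes. Hc, the gene for complement C5, was lower at 243 to 858 CPM (median 412) against 932 to 1093 CPM (median 1042), and its SW range reached close to the B6 mice. Mx1, an antiviral GTPase whose C57BL/6 allele is defective, was lower (1.15 to 2.05 CPM, median 1.62, against 2.86 to 5.38 CPM, median 4.61), as was Sirpa, the macrophage receptor for CD47 (-0.52). The wider list of complement and coagulation genes had 6 higher and 9 lower members of 49. Its shares of 12.2% and 18.4% stood beside 12.6% and 13.9% of all genes.

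Cytosolic ribosomal proteins, which build the ribosome, changed unevenly. Rps2 stood at 1.16 to 1.98 CPM (median 1.75) in SW mice against 92.1 to 112 CPM (median 109) in B6 mice, and Rps18 at 1.92 to 2.61 CPM (median 2.24) against 46.2 to 58.1 CPM (median 53.6). The adjusted p of both was 4.55e-13, with log2 changes of -5.96 ± 0.12 and -4.54 ± 0.10. Rpsa was lower by less (5.89 to 11.4 CPM, median 7.67, against 39.97 to 47.2 CPM, median 42.6). Rpl29 was at most 0.5004 CPM in 5 SW mice and 30.1 in SW LDP 8, against 34.8 to 42.5 CPM (median 38.4) in B6 mice (log2 change -3.44, adjusted p = 0.0427). Without SW LDP 8 its log2 change was -6.89, and without any other 1 mouse its adjusted p was 0.0540 to 0.0890. Over the list 7 of 79 were lower (8.86%) and 11 higher (13.9%), beside 13.9% and 12.6% of all genes, with a median of 0.16, and the higher ones changed by little, such as Rplp1 (0.37) and Fau (0.59). These 11 were 4 to 6 without any 1 of 8 mice, that is all but B6 control 29, SW control 3, SW LDP 2 and SW LDP 5. Reads were aligned to mm10, which is the genome of C57BL/6J, so fewer transcripts and SW reads that differ from the reference and were not counted cannot be told apart here or for any other lower gene. Ribosomal protein genes also have many processed copies in the genome.

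Type I interferons switch on antiviral genes through the factor ISGF3, which binds an element with the core GAAA, any 2 bases and GAAA again. Of 57 tested genes of the type I interferon response, 43 were lower in SW livers and 0 higher, beside 13.9% and 12.6% of all genes, and the median log2 change was -0.83. For 32 of the 57 all SW mice lay below all B6 mice, beside 6.63% of all genes. Promoters of 4 lower members are shown since most of the list was lower. Each gives 150 bases before the start from RefSeq, GRCm38.p6, 5′ to 3′ on the coding strand, with matches to the core in capitals and overlapping matches run together.
Ifit1, chr19:34640739-34640888, plus strand: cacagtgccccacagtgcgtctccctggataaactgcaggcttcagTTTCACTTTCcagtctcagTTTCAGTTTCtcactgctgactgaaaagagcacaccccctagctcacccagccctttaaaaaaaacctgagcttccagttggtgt
Ifit3, chr19:34583379-34583528, plus strand: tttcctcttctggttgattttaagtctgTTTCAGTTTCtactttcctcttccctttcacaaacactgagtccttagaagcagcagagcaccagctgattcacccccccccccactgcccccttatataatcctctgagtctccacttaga
Isg15, chr4:156200819-156200968, minus strand: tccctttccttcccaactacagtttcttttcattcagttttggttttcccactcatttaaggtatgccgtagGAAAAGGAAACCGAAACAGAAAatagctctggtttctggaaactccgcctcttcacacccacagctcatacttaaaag
Oas3, chr5:120777660-120777809, minus strand: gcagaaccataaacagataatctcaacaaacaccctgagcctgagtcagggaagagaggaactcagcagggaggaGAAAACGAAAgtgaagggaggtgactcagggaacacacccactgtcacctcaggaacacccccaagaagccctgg
In the 250 bases before the start, searched on both strands, the core was found in 14 of 29 lower genes with a RefSeq promoter, in 2 of 8 list members that did not pass and in 3.46% of 27025 genes. A match is a description of these letters and not a measured site.

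Ifit1, which binds viral RNA without the host cap, stood at 5.30 to 12.97 CPM (median 9.88) in SW mice against 13.1 to 23.5 CPM (median 19.2) in B6 mice (log2 change -1.04 ± 0.17, adjusted p = 7.01e-04). Ifit3, its partner, stood at 1.01 to 6.35 CPM (median 3.14) against 16.3 to 29.3 CPM (median 21.6), and Ifit2 at 2.88 to 5.26 CPM (median 4.03) against 7.99 to 18.3 CPM (median 12.7). Of these 3, Ifit3 had the largest change (-2.74 ± 0.36) and none overlapped. Isg15, a ubiquitin-like protein, was at 3.44 to 7.69 CPM (median 6.69) against 8.84 to 14.8 CPM (median 13.5). Oas3 and Oasl2, of the 2-5A synthetase family that senses double-stranded RNA, were at 1.27 to 2.57 CPM (median 2.15) against 4.82 to 8.65 CPM (median 6.28) and 4.52 to 6.55 CPM (median 5.38) against 12.6 to 20.6 CPM (median 16.9). Each of the 3 was lower in all 6 SW mice than in any B6 mouse. Irf7, the factor that amplifies interferon production, and Usp18, which removes Isg15 and dampens the receptor, had log2 changes of -1.56 and -1.45. The control arm alone called 20 lower members of 56 tested (median -0.69) and the penicillin arm 40 (median -0.93). Over all genes these arms called 4.77% and 8.71% lower. When 1 mouse was left out in turn, 40 to 45 members of the type I interferon response were lower. Genes described in this and the next paragraph other than Ifit2, Oasl2, Gbp3, Gbp6 and Gbp11 were picked after their values were seen.

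GTPases induced by interferon gamma, which attack the vacuoles of intracellular microbes, were lower in 14 and higher in 1 of 25, beside 13.9% and 12.6% of all genes, with a median of -0.58. Gbp3 stood at 7.28 to 12.2 CPM (median 9.03) against 18.2 to 35.8 CPM (median 30.01) and Gbp6 at 2.51 to 7.22 CPM (median 5.195) against 10.9 to 25.3 CPM (median 14.7). The higher one was Gbp11, in the same gene cluster as Gbp6, at 23.01 to 83.4 CPM (median 66.3) against 9.07 to 28.2 CPM (median 11.4). Gbp11 separated the sets apart from SW control 7, the lowest SW mouse, and B6 LDP 54, the highest B6 mouse (log2 change 2.14 ± 0.29). The interferon-induced chemokines Cxcl9 (5.48 to 12.05 CPM, median 9.24, against 17.4 to 84.4 CPM, median 29.5) and Cxcl10 (1.11 to 3.07 CPM, median 1.95, against 3.72 to 24.98 CPM, median 6.78) were lower as well.

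**Figure D3:**
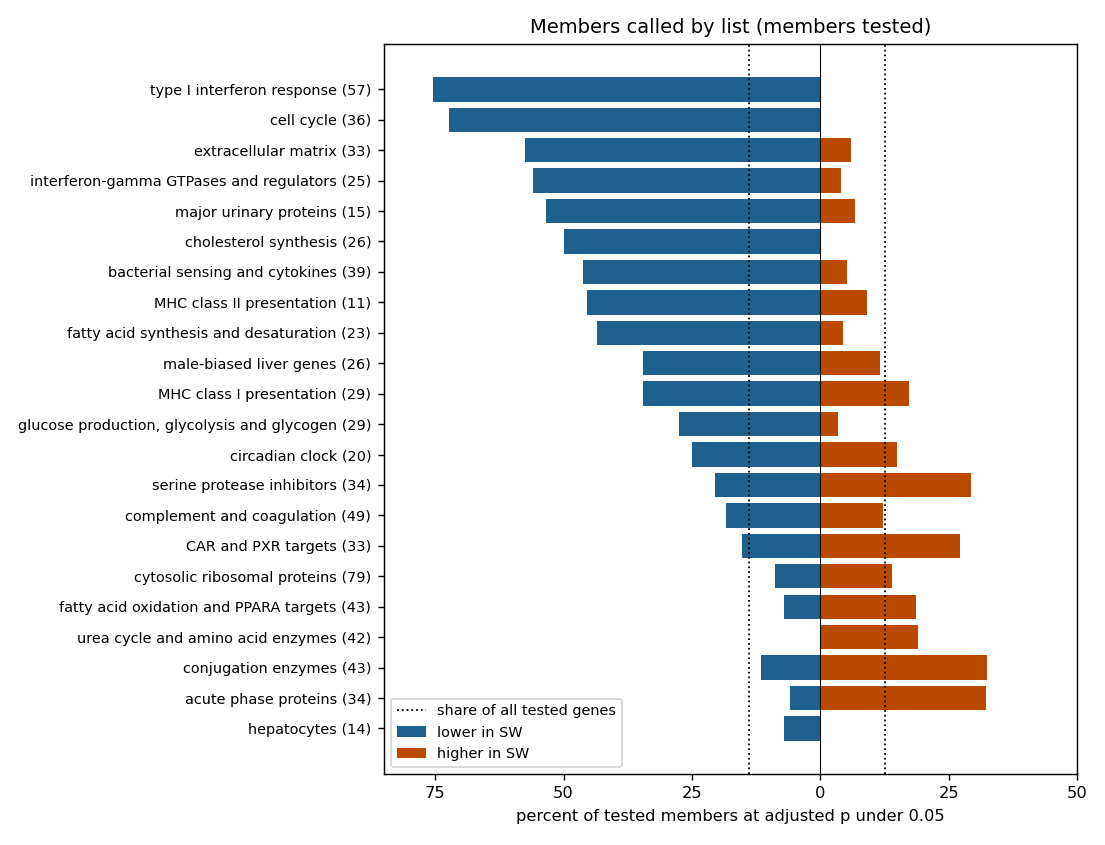
Bars give the percent of the tested members of 22 gene lists that passed at an adjusted p under 0.05, lower in SW to the left and higher to the right, with the number tested in parentheses. Dotted lines mark the shares over all 13295 tested genes, 13.9% lower and 12.6% higher. The type I interferon response (75.4%) and the cell cycle list (72.2%) have the longest bars of lower members, and hepatocyte markers have 1 of 14.

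Markers of immune cells were lower in part. In bulk liver, fewer cells of a type and less RNA per cell cannot be told apart. Markers of Kupffer cells, the resident macrophages, were lower in 7 of 13 and higher in 0, beside 13.9% and 12.6% of all genes, with a median of -0.41. Their summed level was 647 to 954 CPM in SW and 820.1 to 1122 CPM in B6 mice. Folr2, a folate receptor of resident macrophages, stood at 11.1 to 15.7 CPM (median 12.6) against 18.7 to 28.1 CPM (median 22.5), C1qb, a subunit of complement C1q, at 47.4 to 66.5 CPM (median 54.7) against 68.4 to 97.95 CPM (median 85.1), and Marco, a scavenger receptor that was picked after its values were seen, at 6.02 to 16.8 CPM (median 9.91) against 9.73 to 40.2 CPM (median 21.7). Folr2 and C1qb did not overlap and Marco did. Monocyte and recruited macrophage markers were lower in 6 of 12 and higher in 1, Cd9 (0.99), with Plac8 (-0.84) and Fcgr1 (-1.11) the lower ones of smallest p. B and plasma cell markers were lower in 4 of 7, with summed levels of 153 to 248 CPM in SW and 157 to 259 CPM in B6 mice, neutrophil markers in 2 of 4, dendritic cell markers in 4 of 12 (2 without SW control 1 or any 1 mouse of the penicillin arm) with 1 higher, and T cell markers in 0 of 10. How far these shifts in cell markers account for the lower interferon genes was not tested.

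Genes that sense bacteria and make cytokines were lower in 18 of 39 (46.2%, beside 13.9% of all genes) and higher in 2, with a median of -0.32. Their summed level went the other way, with 878.5 to 1002 CPM in SW and 811.2 to 874.5 CPM in B6 mice and no overlap, a sum in which abundant members such as Lbp weigh most. Naip2, which detects rod proteins of bacterial secretion systems, stood at 1.08 to 2.98 CPM (median 2.09) against 7.40 to 12.2 CPM (median 9.61), with a log2 change of -2.23 ± 0.20. Tlr13, a receptor for bacterial ribosomal RNA, stood at 0.971 to 3.07 CPM (median 1.92) against 3.23 to 5.82 CPM (median 4.36). Both were lower in every SW mouse. Higher were Tlr6, which pairs with Tlr2 to bind lipopeptides (1.77 to 3.18 CPM, median 2.32, against 0.335 to 1.10 CPM, median 0.807), and Lbp, the plasma protein that hands over lipopolysaccharide (225 to 312 CPM, median 260.4, against 137 to 212 CPM, median 175). The control arm alone called 1 lower and 1 higher gene of 38 in the list of bacterial sensing and cytokines (median -0.25), and the penicillin arm 13 lower and 3 higher of 39 (median -0.63). Over all genes the control arm called 4.77% lower and 3.67% higher, and the penicillin arm 8.71% and 6.22%.

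The cell cycle list, of genes for DNA replication and mitosis, was lower in 26 of 36 (72.2%, beside 13.9% of all genes) and higher in 0, with a median of -1.23. Dividing cells are few in adult liver, and the members named here were at low levels. Rrm2, the small subunit of ribonucleotide reductase, stood at 0.896 to 2.52 CPM (median 1.31) in SW against 4.28 to 7.26 CPM (median 6.22) in B6 mice (log2 change -2.01 ± 0.21, adjusted p = 1.39e-05). Bub1b, of the spindle checkpoint, stood at 0.112 to 0.712 CPM (median 0.339) against 1.33 to 2.78 CPM (median 2.19), and Top2a, which untangles DNA, at 0.747 to 3.07 CPM (median 1.04) against 3.26 to 6.80 CPM (median 6.06). These 3 did not overlap, though SW LDP 5 came close to the B6 mice in Top2a. Mki67, the antigen Ki-67 of cycling cells, overlapped, with SW LDP 5 again the highest SW mouse (0.854 to 4.60 CPM, median 1.56, against 3.45 to 9.62 CPM, median 7.69), and Ccnb1, the mitotic cyclin B1, was at 0 to 0.136 CPM (median 0) against 0.236 to 0.614 CPM (median 0.481). Top2a, Mki67 and Ccnb1 were picked after their values were seen. The control arm alone called 21 lower members of 34 (median -1.29) and the penicillin arm 7 lower and 1 higher of 32 (median -0.82). Of all genes, 4.77% were lower in the control arm, and 8.71% lower and 6.22% higher in the penicillin arm. With a filter at a mean of 1 CPM, 16 of 25 tested members of the cell cycle list were lower, with a median of -0.67.

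Extracellular matrix genes were lower in 19 of 33 (57.6%, beside 13.9% of all genes) and higher in 2, with a median of -0.55. Col1a1, the main fibrillar collagen chain, stood at 1.82 to 2.91 CPM (median 2.64) in SW against 5.80 to 20.3 CPM (median 10.9) in B6 mice (log2 change -2.10 ± 0.25, adjusted p = 6.41e-05). Its log2 change was -1.37 in the control arm and -2.80 in the penicillin arm, a difference that DESeq2 called and edgeR did not. Its partner Col1a2 was at 14.1 to 17.85 CPM (median 14.8) against 21.6 to 45.3 CPM (median 28.7), Col5a2 at 2.46 to 3.89 CPM (median 2.98) against 5.53 to 13.6 CPM (median 9.19) and Timp3, an inhibitor of metalloproteinases, at 15.2 to 20.2 CPM (median 16.4) against 29.7 to 46.7 CPM (median 33.7). All 4 were lower in every SW mouse than in any B6 mouse. Col3a1 overlapped (-1.05 ± 0.19), and the inhibitor Timp2 was higher (0.74). Col1a1, Col1a2 and Col3a1 were picked after their values were seen. The extracellular matrix list had 6 lower members in the control arm alone (median -0.30) and 19 in the penicillin arm (median -0.78). Over all genes these arms called 4.77% and 8.71% lower. B6 LDP mice had the highest means of the matrix list. Stellate cell and fibroblast markers were lower in 4 of 15, or 7 without SW LDP 8 (Lrat, which stores vitamin A, 12.6 to 21.1 CPM, median 17.96, against 21.7 to 33.4 CPM, median 30.9), with summed levels of 351 to 520.0 CPM in SW and 472 to 592 CPM in B6 mice. Mesothelium markers, of the liver capsule, were lower in 2 of 7, or 6 without SW control 7 (Gpm6a, a membrane glycoprotein, -1.51), at 64.9 to 92.3 and 74.5 to 136 CPM. Their part in the lower matrix genes was not tested. Sinusoidal endothelium markers were lower in 3 (5 without SW control 7) and higher in 2 of 15, and Lyve1, the hyaluronan receptor, stood at 2.12 to 12.7 CPM (median 6.14) against 16.98 to 53.2 CPM (median 32.3), with a log2 change of -2.34 ± 0.39.

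**Figure D4:**
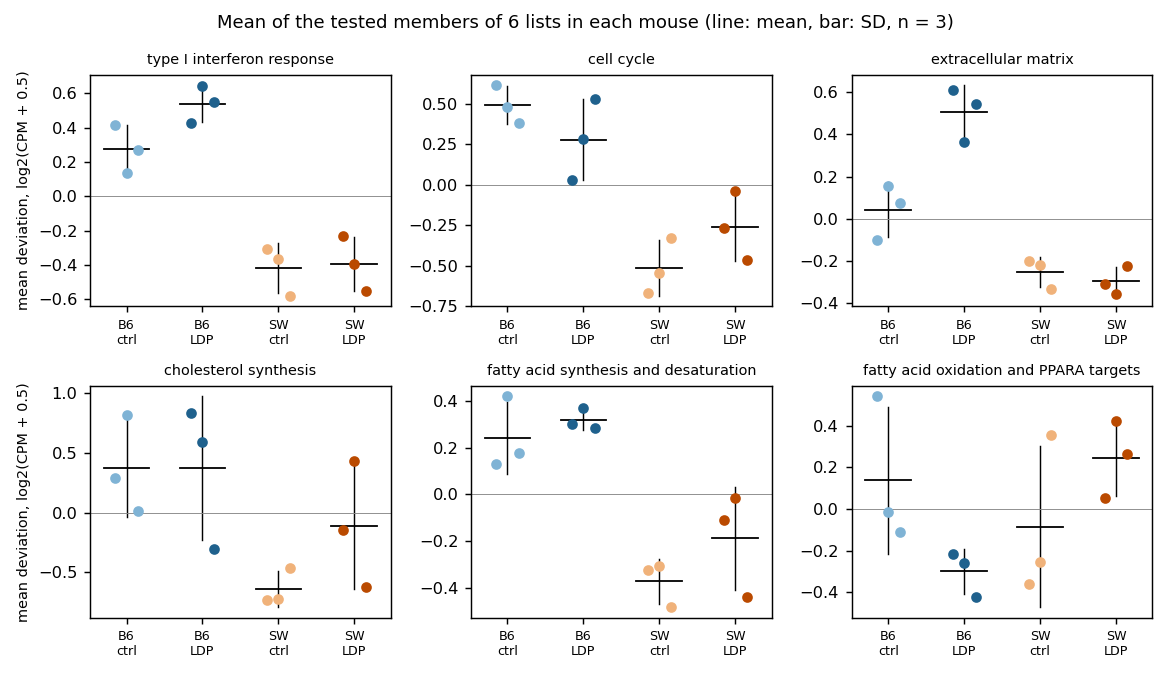
Each point is 1 mouse, and its value is the mean over the tested members of a list of log2(CPM + 0.5) minus the gene's mean over the 12 mice. Lines and bars give the mean and SD of 3 mice. All 6 SW mice lie below all 6 B6 mice for the type I interferon, cell cycle, matrix and fatty acid synthesis lists, while sets overlap for cholesterol synthesis and for fatty acid oxidation, where B6 control 29 and SW control 7 stand above their groups.

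Many lipid synthesis genes were lower in SW livers. SREBP1 drives the making of fatty acids and SREBP2 that of cholesterol. Scd1, which puts the first double bond into saturated fatty acids, stood at 168 to 439 CPM (median 234) in SW and 2437 to 5663 CPM (median 4063) in B6 mice (log2 change -3.86 ± 0.33, adjusted p = 5.77e-06). Every SW mouse was far below every B6 mouse. Over fatty acid synthesis and desaturation, 10 of 23 were lower (43.5%, beside 13.9% of all genes) and 1 higher, with a median of -0.50. Acaca, which makes malonyl-CoA, was at 12.4 to 24.3 CPM (median 19.2) against 30.3 to 54.7 CPM (median 34.3), Fasn, the fatty acid synthase, at 57.3 to 159 CPM (median 106) against 169 to 307 CPM (median 223), and the elongase Elovl6 at 9.53 to 29.04 CPM (median 20.1) against 32.9 to 68.7 CPM (median 53.03). Ranges of these 3 did not overlap. Acly was lower with overlap (-0.65), as was Scd2 (-0.59), and Srebf1, the gene of SREBP1 itself, had a log2 change of -0.35 ± 0.30 (adjusted p = 0.417). Insig2, which holds SREBPs in the endoplasmic reticulum, was the 1 higher gene, at 248 to 488 CPM (median 299) against 103 to 148 CPM (median 115). Of the triglyceride and lipid droplet genes 7 of 27 were lower and 2 higher, beside 13.9% and 12.6% of all genes, with a median of 0.04. Those lower were 4 without any 1 of B6 control 32, SW control 1, SW control 3 and SW LDP 2, and those higher 4 without B6 control 29. Lpin1, a phosphatidate phosphatase, stood at 57.8 to 261 CPM (median 90.9) against 425 to 782 CPM (median 556), with a log2 change of -2.22 ± 0.34. The lipase Pnpla2 was lower (-0.48) and Agpat2 higher (0.48).

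Cholesterol synthesis genes were lower in 13 of 26 (50%, beside 13.9% of all genes) and higher in 0, with a median of -0.66. Sc5d, a late desaturase of the pathway, stood at 107 to 186 CPM (median 153) against 311 to 423 CPM (median 365), with a log2 change of -1.28 ± 0.13. It was lower in every SW mouse than in any B6 mouse. Sqle, the squalene epoxidase, ranged from 1.84 to 22.9 CPM in SW and from 9.02 to 50.8 CPM in B6 mice (-2.39 ± 0.69, adjusted p = 0.0264), with SW LDP 5 high among the SW mice. Without any 1 of B6 LDP 39, B6 LDP 52, SW control 1, SW control 3 and SW LDP 2, its adjusted p was 0.0506 to 0.0590. Fdps, which makes farnesyl diphosphate, was lower with overlap (-1.64). The cholesterol synthesis count rested on single mice: it was 7 without B6 LDP 39, 8 without each of B6 control 30, B6 LDP 52, SW control 3 and SW LDP 2, and 17 and 19 without SW LDP 5 and B6 LDP 54. The control arm alone called 14 (median -0.98) and the penicillin arm 1 (median -0.52), beside 4.77% and 8.71% of all genes lower in these arms.

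Genes of fatty acid oxidation had a change above 0 in 31 of 43 and below 0 in 12, but the arms had medians of opposite sign. Of 43 tested genes in the list of fatty acid oxidation and PPARA targets, 8 were higher and 3 lower, beside 12.6% and 13.9% of all genes, with a median of 0.19. The control arm alone had a median of -0.16 with 2 higher, while the penicillin arm had a median of 0.51 with 20 higher. Over all genes these arms called 3.67% and 6.22% higher. With both arms and without B6 control 29, 17 of the list were higher (median 0.34). Acaa1a, a peroxisomal thiolase, stood at 339.6 to 541 CPM (median 371) against 134 to 262 CPM (median 198), with a log2 change of 1.04 ± 0.16. No SW mouse fell into its B6 range. Bdh1, of ketone body metabolism, was higher with overlap (0.67). Cyp4a32 was higher (52.5 to 98.4 CPM, median 84.3, against 28.2 to 39.5 CPM, median 35.1) and its neighbour Cyp4a31 lower (2.25 to 12.3 CPM, median 7.63, against 28.4 to 69.3 CPM, median 31.5), both fatty acid hydroxylases. Ppara, the receptor itself, was lower by little (-0.44). Respiratory chain genes under oxidative phosphorylation were higher in 6 and lower in 3 of 76, shares of 7.9% and 3.9% below the 12.6% and 13.9% of all genes. Of the 76, 65 had a change above 0, with a median of 0.13. The higher ones were 13 without B6 control 29, and 1 to 3 without any 1 of the other 5 B6 mice, SW control 7, SW LDP 5 and SW LDP 8.

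**Figure D5:**
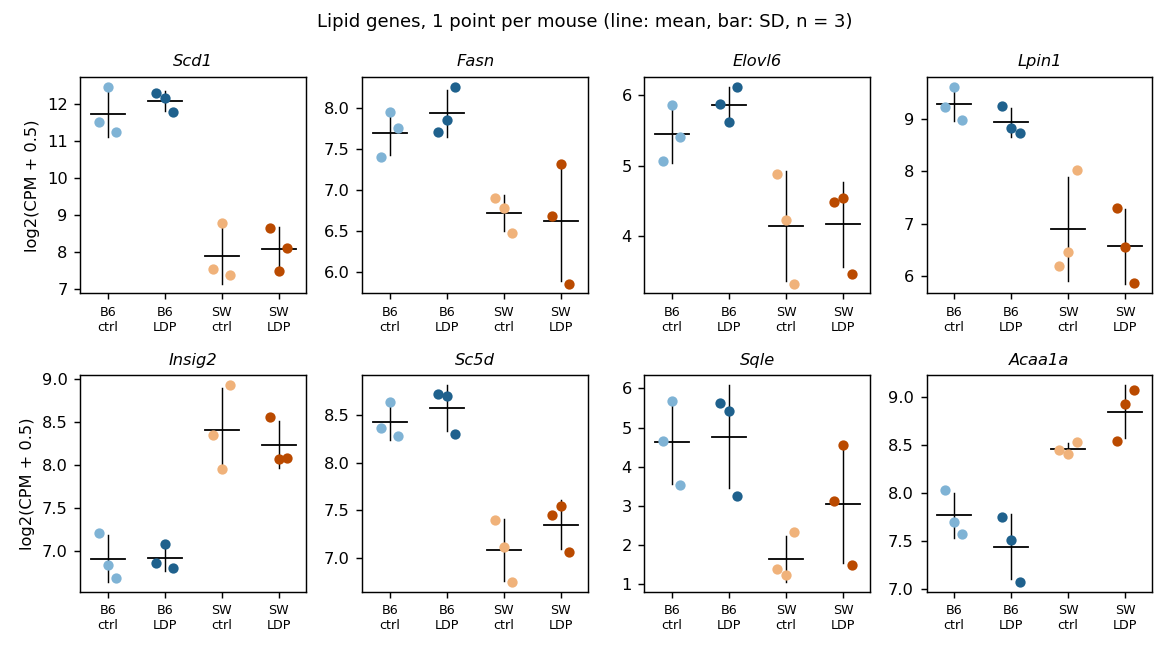
Expression of 8 lipid genes in each mouse as log2(CPM + 0.5), with a line for the mean and a bar for the SD of 3 mice. Scd1, Fasn, Elovl6, Lpin1 and Sc5d lie lower and Insig2 and Acaa1a higher in all 6 SW mice than in any B6 mouse, and Sqle overlaps.

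Bile acid synthesis had 3 higher (5 without B6 LDP 39) and 2 lower genes of 18, shares of 16.7% and 11.1% near the 12.6% and 13.9% of all genes, with a median of 0.16. Acox2, of side-chain shortening, stood at 291 to 389 CPM (median 352) against 168 to 206 CPM (median 190.2). Cyp2a12, which hydroxylates bile acids in mice, was at 96.6 to 478 CPM (median 123) against 541 to 793 CPM (median 693), and Cyp27a1, of the alternative pathway, at 298 to 391 CPM (median 333) against 350.3 to 603 CPM (median 544). Acox2 and Cyp2a12 separated the sets. Cyp7a1, the rate-limiting enzyme of bile acid synthesis, had a log2 change of -0.66 ± 0.45 and did not pass (adjusted p = 0.306). Bile acid and sterol transporters had 1 higher of 18 (5.6%, beside 12.6% of all genes) and 0 lower. Apolipoprotein and lipoprotein genes were higher in 5 (18.5%) and lower in 3 (11.1%) of 27, near the 12.6% and 13.9% of all genes. Those higher were 3 without any 1 of B6 control 30, B6 LDP 52, B6 LDP 54 and SW LDP 8. Apon was higher (429 to 535 CPM, median 504, against 272 to 343 CPM, median 291). Lower were lipoprotein lipase, Lpl (10.6 to 28.5 CPM, median 13.6, against 24.6 to 92.01 CPM, median 32.6), and the transfer protein Pltp (-1.07). Urea cycle and amino acid enzymes were higher in 8 (19.05%) and lower in 0 of 42, beside 12.6% and 13.9% of all genes. Those higher were 5 without B6 LDP 52. Gldc, which splits glycine, stood at 202 to 295 CPM (median 242) against 69.1 to 122 CPM (median 113) and Bckdhb, of branched-chain amino acid breakdown, at 137 to 179 CPM (median 151) against 69.8 to 82.4 CPM (median 80.8), both with no overlap. Genes of glucose production, glycolysis and glycogen were lower in 8 (27.6%) and higher in 1 (3.4%) of 29, beside 13.9% and 12.6% of all genes. Among the lower ones were liver glycogen synthase Gys2 (111 to 199 CPM, median 154, against 285 to 415 CPM, median 312) and Pck2 (-1.02).

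Acute phase proteins, which hepatocytes secrete in inflammation, were higher in 11 and lower in 2 of 34, beside 12.6% and 13.9% of all genes, with a median of 0.17. Metallothioneins Mt1 and Mt2, which bind zinc and copper, stood at 409 to 695 CPM (median 606) against 166 to 325 CPM (median 209) and 286 to 516 CPM (median 423) against 74.9 to 198 CPM (median 109). No SW mouse fell into the B6 range of either. Orm3, an orosomucoid, stood at 7.10 to 21.4 CPM (median 10.2) against 0.740 to 5.05 CPM (median 2.46), and Lcn2, which binds bacterial siderophores, at 12.3 to 67.2 CPM (median 32.02) against 5.92 to 13.6 CPM (median 9.13), with a log2 change of 1.78 ± 0.41, adjusted p = 0.00874. Lcn2 overlapped and was 1 of the 12 genes for which DESeq2 called a difference between the arms (2.77 in the control arm and 0.79 in the penicillin arm). Ifitm3, an antiviral membrane protein, was lower (-0.56). Igfbp1, a binding protein of insulin-like growth factors, was the 1 lower gene of its list of 21 (25.98 to 55.5 CPM, median 47.05, against 96.3 to 211 CPM, median 120.5). Markers of erythroid cells were higher in 4 of 5 (2 without any 1 of B6 control 29, B6 control 30, B6 LDP 52, B6 LDP 54 and SW control 7), with summed levels of 106 to 461 CPM in SW and 40.7 to 94.99 CPM in B6 mice.

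Clock genes keep the daily cycle of the liver, and the time of day of collection is not given. Of 20 tested, 3 were higher and 5 lower (10 without SW control 7), beside 12.6% and 13.9% of all genes, with a median of -0.30. Arntl, the activator known as BMAL1, stood at 4.49 to 9.81 CPM (median 7.35) against 1.79 to 3.98 CPM (median 3.30). Its targets Dbp (42.4 to 67.4 CPM, median 55.9, against 77.1 to 125 CPM, median 95.5), Per2 (21.4 to 34.2 CPM, median 25.8, against 36.2 to 55.5 CPM, median 45.2) and Tef (-0.64) were lower. None of these 4 overlapped. Among immediate early genes, which respond to stimuli within minutes, 4 of 19 were lower (2 without B6 LDP 54) and 1 higher, with Egr1 at 3.34 to 7.47 CPM (median 5.17) against 9.77 to 60.4 CPM (median 25.9). Of 16 heat shock genes 2 were higher (6 without B6 control 29) and 2 lower, 12.5% each, near the 12.6% and 13.9% of all genes. Hspa8, the constitutive chaperone, was lower (66.8 to 115 CPM, median 96.8, against 293 to 362 CPM, median 326) and the inducible Hspa1a, of the MHC region, was higher (2.29 to 6.41 CPM, median 3.95, against 0.184 to 1.45 CPM, median 0.555). Genes of ER stress were lower in 2 and higher in 0 of 27.

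The spread between mice of a group is given as a description. Over 7660 genes with a mean of at least 10 CPM, the median SD of log2(CPM + 0.5) between 3 mice was 0.144 and 0.155 in the SW groups and 0.125 and 0.120 in the B6 control and LDP groups. It was larger in both SW groups than in both B6 groups, a difference that was not tested. Genes were then listed that went from at most 0.25 CPM in 1 mouse to at least 5 CPM in another of the same set, thresholds set after the values were seen. There were 10 such genes among SW mice and 6 among B6 mice. Ceacam2, a cell adhesion protein related to Ceacam1, stood at 51.2 CPM in SW control 7, 42.1 in SW LDP 5 and 5.69 in SW LDP 2. The other 3 SW mice and all B6 mice were at or under 0.270 CPM. Zrsr1, an imprinted splicing factor gene, was at 0.164 CPM in SW LDP 5 and at 18.8 to 27.4 CPM in the other SW mice. Rpl29, described above, set SW LDP 8 apart from the other 5 SW mice. Among B6 mice, B6 LDP 54 was at 0.139 CPM of Elovl3, against 3.18 to 6.65 CPM in the others. B6 LDP 52 was at 5.61 CPM of Xlr4a, against 0 to 1.17 CPM in the other B6 mice. Different genes thus set apart different mice in both sets. These genes were chosen after their values were seen.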

How the data were processed

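Per the labels' protocols, RNeasy Mini Kit columns gave the liver RNA and TruSeq v2 the libraries. The deposited values are raw whole-number counts per gene, not normalized. Alignment tools and counters were, per the submitters' processing notes and without their order, featureCounts 1.4.3-p1, DESeq, STAR 2.3.0e and HTSeq 0.5.3p9, with the build mm10, which is the genome of C57BL/6J. The strand setting and the treatment of reads that match several places are not given in the sources used here. Totals were 17937005 to 28646168 counts per library over the 12 libraries.

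Genes were kept by edgeR's filterByExpr (at least 10 counts in enough mice and 15 in all), scaled by TMM and tested with edgeR 4.0.16 (R 4.3.3) by the robust quasi-likelihood test, with the arm and the set of mice as terms, and Benjamini-Hochberg adjustment at 0.05. The SE is the log2 change over the root of F and is approximate. Levels are CPM. The difference between arms was tested as an interaction. DESeq2 1.42.0, other scalings and filters, each arm alone and leaving out each mouse were alternatives. On simulated data for 13162 genes edgeR found 46.3%, 89.2% and 97.0% of genes changed 1.5-fold, 2-fold and 4-fold, with 7 false calls of 160. DESeq2 found 61.2%, 93.9% and 98.5%, with 28 false calls of 195. Only 67, 65 and 66 tested genes were changed at these folds, against 3512 genes that passed in the data. The shares found may therefore differ for the data. Intervals of ratios are exact 95% intervals of counting error. Positions are from GENCODE M21 (GRCm38), where 13134 of 13295 tested symbols matched 1 gene, and promoters from RefSeq, GRCm38.p6.

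The members, lists and tests were chosen with earlier results of these data known. Genes were named by a rule: among those that passed, did not overlap and averaged 1 CPM or more, the 12 of largest change in each direction, up to 2 passing members of smallest p per list and direction, and up to 6 genes counted in 1 set only. All others were picked after their values were seen. Gene models without a name were counted and not named, and a few genes of these lists are not reported here. Of the lists, 37 symbols were matched through RefSeq synonyms, and Saraf stood in the acute phase list by mistake. Each list is given by its counts and median with no test of the list. Males enter only where they are named.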

Additional observations from a re-analysis of the deposited data

Results flagged for a closer look

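In each set of 6 mice, a mouse was listed where its gap to the nearest other mouse, over the range of the set, was above Dixon's 95% critical value of 0.625. Of 327 gene and set pairs 29 were listed. The critical value lists about 1 in 20 by chance, or 16.4, where values are normally distributed. Here CPM of chosen genes were used, some of them counted in only 1 mouse of a set. The 29 therefore cannot show an excess over 16.4. All values are CPM.

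SW LDP 5 stood apart among SW mice in 7 genes. It was high in Cyp2a12 (478.0, others 96.6 to 189), Cyp3a16 (680.6, others 319 to 436), Serpina3h (14.35, others 9.90 to 11.2), Top2a (3.067, others 0.747 to 1.21) and Mki67 (4.600, others 0.854 to 2.05). It was also high in Sqle (22.94, others 1.84 to 8.24) and low in Apon (429.1, others 498 to 536). Other lone SW mice were SW control 7, high in Sult2a1 (687.8, others 139.7 to 271) and low in Gbp11 (23.01, others 63.5 to 83.4) and Isg15 (3.441, others 6.34 to 7.70), and SW control 3 in Frmpd1 (2.292, others 0.971 to 1.37). SW LDP 8 was high in Lpl (28.50, others 10.6 to 16.5), Rplp1 (242.3, others 159 to 184), Col1a2 (17.85, others 14.1 to 15.4) and Rpl29 (30.07, others 0.101 to 0.5004).

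Among B6 mice, B6 LDP 54 stood apart in 7 genes. It was high in Serpina1e (4018, others 985 to 1712), Gbp11 (28.22, others 9.08 to 16.1), Gys2 (414.7, others 285 to 333) and Lpl (92.01, others 24.6 to 44.8), high in the interferon-induced chemokines Cxcl9 (84.42, others 17.4 to 40.1) and Cxcl10 (24.98, others 3.72 to 7.32), and low in Gstt1 (210.8, others 342 to 379). B6 control 29 was high in Agpat2 (104.7, others 70.6 to 82.7) and Cyp4a31 (69.30, others 28.5 to 41.5), and B6 LDP 39 in Apon (343.2, others 272 to 298). The remaining 4 were genes at 0 in the other 5 mice of the set: Sult2a6 (0.05585) and H2-Ea-ps (0.05585) in B6 control 29, Chrna4 (0.05476) in SW LDP 5 and Ube2u (0.07471) in SW LDP 8.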

How the results depend on the processing

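No paired analysis was possible because SW and B6 mice share no mouse number. The control arm alone called 472 higher and 614 lower genes and the penicillin arm alone 808 and 1132, with 3 against 3 mice. Leaving out each mouse in turn gave 1302 to 1824 higher and 1547 to 2010 lower genes. For the difference between arms DESeq2 called 12 genes, and leaving out each mouse gave 0 to 3 by edgeR. They were Ces1f without B6 LDP 39, Capn3 and Hhip without SW control 7, Cyp46a1 without SW LDP 2, and Ces1f, Fbxo44 and Gabra3 without SW LDP 8. Genes counted in 1 set only were 13 in SW and 9 in B6 mice with at most 3 counts in the other set, and 1 and 1 with at least 30 counts. For 229 genes named by the rule or in the text no alternative reversed the direction, 22 lost their call when 1 mouse was left out, and Srebf1 (-0.63) and Cyp7a1 (-1.15) passed in the penicillin arm alone. Small changes were found least often in the simulated data, where edgeR found 46.3% and DESeq2 61.2% of 1.5-fold changes. Far fewer genes were changed there than passed here, so these shares may differ for the data.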
